A study of Mus musculus with 12 samples.

Results

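The endothelin system of the aortic wall was read from 6 genes, the ligands Edn1 and Edn3, the receptors Ednra and Ednrb, and the converting enzymes Ece1 and Ece2. They were taken by mouse gene symbol from the 55092 rows of 1 expression table, and each symbol matched 1 Ensembl gene. RNA-Seq of the abdominal aorta was available from 12 male mice in 4 groups of 3. The CFS and CFA groups were floxed control mice (CCN2fl/fl) given saline or angiotensin II (Ang II), and the CSS and CSA groups were CCN2SMCΔ mice, in which Ccn2 had been deleted in smooth muscle cells (SMCs), given saline or Ang II. The deletion was made with the tamoxifen-inducible Myh11-Cre-ERT2 transgene, which is driven by the smooth muscle myosin promoter. All 4 groups, the controls without Cre included, carried the floxed allele and received 5 tamoxifen injections starting at 8 weeks of age with a rest of 2 weeks before infusion. Ang II was infused at 500 ng/kg/min from mini-osmotic pumps, and aortas were taken on day 7. By then, the paper reports, most CCN2SMCΔ mice given Ang II had infrarenal aneurysms, and a few floxed mice had mild ones elsewhere. The paper took the RNA from infrarenal tissue and does not give the aneurysm state of each sequenced mouse. In CSA, the loss of Ccn2 and aneurysmal remodelling of the wall cannot be told apart. Because the controls lacked Cre, the presence of Cre and the loss of Ccn2 cannot be told apart. In whole aortic tissue, fewer cells of a type and less RNA per cell cannot be told apart either.

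Endothelin-1 is the main vasoconstrictor peptide made by endothelial cells. It is cut from a precursor by furin-like enzymes and then by endothelin-converting enzyme, and it acts on neighbouring cells through a pair of G protein-coupled receptors. The A receptor (Ednra), best known from SMCs, drives contraction through calcium release and binds endothelin-3 weakly. The B receptor (Ednrb) of endothelial cells binds all endothelins with similar strength, clears endothelin-1 from the circulation and releases nitric oxide and prostacyclin. Ang II is a known stimulus of endothelin-1 synthesis.

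The coding stretch for each mature peptide is shown to compare the ligands, from the GENCODE M21 transcripts of GRCm38, 5′ to 3′, with the 4 cysteine codons that form the disulfide bridges in capitals.
Edn1: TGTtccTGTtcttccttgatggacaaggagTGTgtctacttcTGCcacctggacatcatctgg
Edn3: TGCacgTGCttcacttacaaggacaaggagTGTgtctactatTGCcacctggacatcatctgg
These are bases 576 to 638 of the Edn1 transcript, codons 53 to 73 of the 202 of its precursor, and bases 637 to 699 of the Edn3 transcript, codons 97 to 117 of 214. Of 63 bases 50 were the same, and 15 of the 21 encoded residues were the same. Edn1 lies at chr13:42301476-42307990 on the plus strand, Edn3 at chr2:174760619-174784042 on the plus strand and Ednra at chr8:77663031-77724464 on the minus strand. Ednrb lies at chr14:103814625-103844402 on the minus strand, Ece1 at chr4:137862237-137965229 and Ece2 at chr16:20629828-20646485, both on the plus strand. All 6 are protein-coding genes.

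The promoters of Edn1 and Ednra are printed because these were the only genes of the 6 that passed the test between groups. The windows run from 250 bases before to 50 after the RefSeq start site (GRCm38.p6), on the strand of the gene, at chr13:42301226-42301525 for Edn1 and chr8:77724403-77724702 for Ednra. Capitals mark the motif matches.
Edn1: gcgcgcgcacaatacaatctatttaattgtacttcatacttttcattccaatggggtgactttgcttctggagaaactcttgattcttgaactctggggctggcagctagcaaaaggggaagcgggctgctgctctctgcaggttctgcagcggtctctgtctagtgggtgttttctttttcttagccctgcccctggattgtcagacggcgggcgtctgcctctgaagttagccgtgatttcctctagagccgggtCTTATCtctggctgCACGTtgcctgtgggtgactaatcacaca
Ednra: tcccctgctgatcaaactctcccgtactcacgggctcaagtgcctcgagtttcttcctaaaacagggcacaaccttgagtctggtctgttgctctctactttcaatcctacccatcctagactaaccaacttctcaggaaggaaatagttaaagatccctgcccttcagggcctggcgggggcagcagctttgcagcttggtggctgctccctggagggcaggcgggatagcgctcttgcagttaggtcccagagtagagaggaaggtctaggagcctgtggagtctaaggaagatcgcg
Of the 6 motifs searched on both strands, the Edn1 window held 2 on the reverse strand. They were GATAAG, a motif of the GATA factors, from base 8 after the start site, and ACGTG, the core of the hypoxia response element, from base 22. The first was present in 7.44% and the second in 19.6% of the 32851 mouse promoter windows of this length. The Ednra window held none of the 6. The other motifs were the CArG box of serum response factor (1.63% of windows), TGACTCA, for AP-1 (5.20%), CAGATA, again for GATA factors, whose last letters can overlap the motif found (10.7%), and CAGACA, for Smads (21.04%). A match is a run of letters only, and binding was not measured.

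Depth, recovered as whole fragments from the deposited values, ran from 14558580 to 23107807 per mouse, and the mice are separate animals. CSA03 had the lowest depth and stood 1.21 and 1.199 from CSA01 and CSA02 (root mean square difference of log2 values over the tested genes), while pairs within groups not involving it lay 0.505 to 0.743 apart. Ccn2, the deleted gene, was 255 to 399 FPKM (fragments scaled by gene length and library size) in CSA and 564 to 1105 in CFA, a log2 fold change of -1.41 ± 0.34 (SE, limma adjusted p = 0.00622). Under saline it was 436 to 640 FPKM in CSS and 480 to 1108 in CFS, and these ranges overlapped (log2 fold change -0.40, limma adjusted p = 1), so Ccn2 did not separate the labelled genotypes there. In a separate cohort, the paper reports less CCN2 protein in CCN2SMCΔ than in floxed aortas under both saline and Ang II. Ccn2 shares 23.2% of its exonic bases with a transcript on the other strand. Markers differed widely between CSA and CFA. The summed level of 8 SMC markers was 800 to 959 FPKM in CSA and 5532 to 8420 in CFA, that of 7 macrophage markers 2241 to 2435 and 324 to 687, and that of 6 fibroblast markers 3559 to 4248 and 2204 to 2428. Col1a1 made up most of the fibroblast sum, with means of 2823 FPKM in CSA and 1439 in CFA. At a limma adjusted p under 0.05, 2 of these 6 markers were higher in CSA and 2 lower.

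In the aorta, Ece1 was the most abundant of the 6 genes, with a mean of 51.2 FPKM over the 12 mice. Edn1 followed at 18.1 FPKM, then Ednra at 5.96 and Ednrb at 4.73. Edn3 and Ece2 never exceeded 0.312 and 0.328 FPKM. FPKM is corrected for length, so these levels can be set beside each other. Behind these levels stood 2692 to 7078 fragments per mouse for Ece1, 160 to 1734 for Edn1, 376 to 870 for Ednra and 111 to 653 for Ednrb, against 0 to 28 for Edn3 and 7 to 34 for Ece2. Edn1 and Ednra share 1.6% and 1.7% of their exonic bases with transcripts of the other strand, and Edn3, Ednrb and Ece1 share none. The first 4 genes passed the filter for testing (3 or more mice at 1 FPKM or above), and Edn3 and Ece2 did not. A gene was called at a limma adjusted p under 0.05 and a log2 fold change over 1.5 in size, the limits of the study. Fold changes are on the scale of log2(FPKM + 0.1), which understates changes of low genes.

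**Figure D1:**
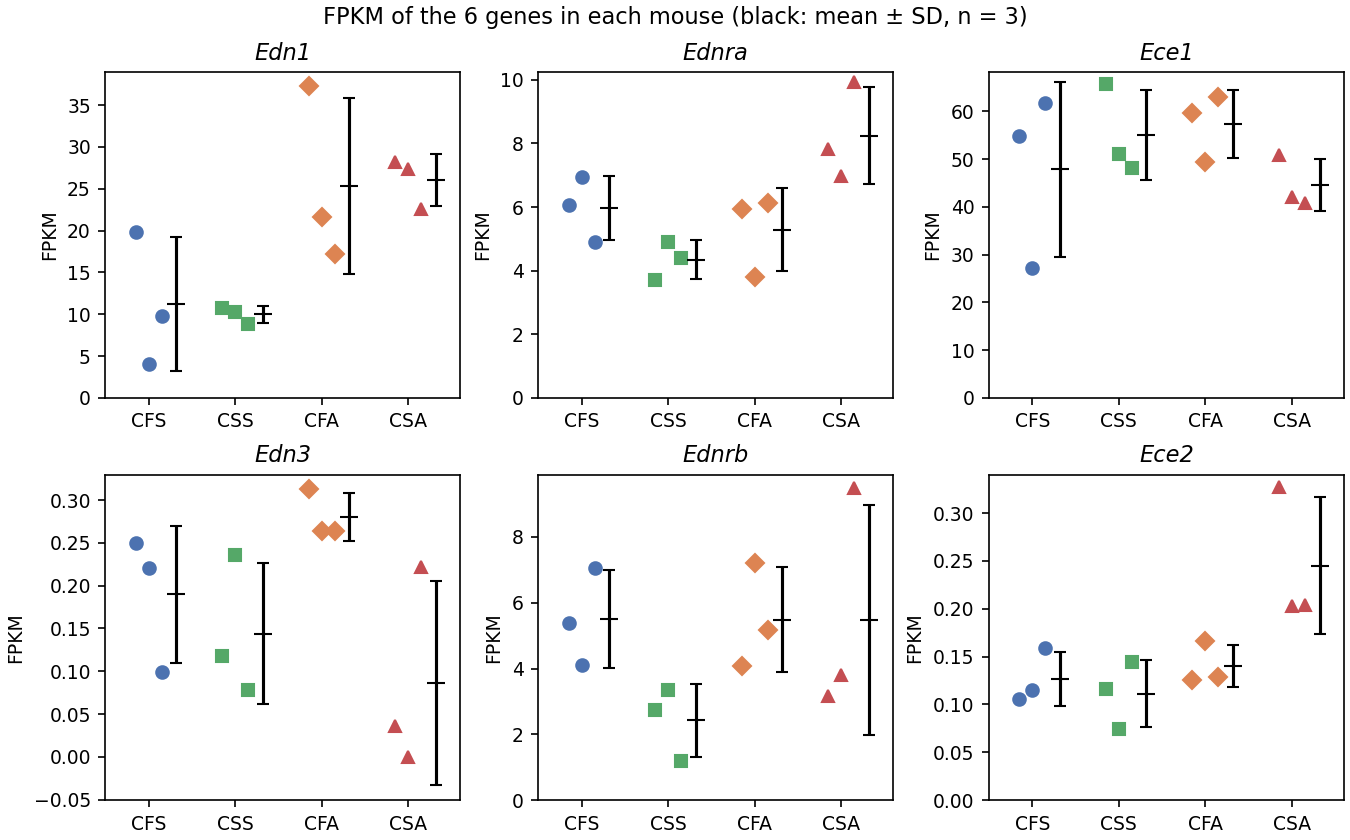
FPKM of the 6 genes in each mouse (coloured points, 3 per group) with the group mean ± SD in black, each panel on its own scale. Ednra in CSA (6.99 to 9.93 FPKM) lies above every other mouse, Edn1 is higher in both Ang II groups on average, and Edn3 and Ece2 stay below 0.33 FPKM.

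None of the 4 tested genes was called by both limits in any comparison. Between CSA and CFA, 17.2% of 14676 tested genes were called, and 40.7% passed the adjusted p alone, as did 1 of the 4 (Ednra), which was also the 1 with an unadjusted p under 0.05 (49.0% of genes) and the 1 whose groups did not overlap (48.5% of genes). Between CSS and CFS the call took 0.0136% of genes and the adjusted p alone 0.0204%, and 0 of the 4 passed, with 1 (Ednrb) at an unadjusted p under 0.05, as were 6.30% of genes, and without overlap, as were 20.4%. Between CFA and CFS the shares were 0.0273% and 0.0341%, and again 0 of the 4 passed, with 1 (Edn1) at an unadjusted p under 0.05, as were 9.42% of genes, and 0 without overlap, against 20.2% of genes. Between CSA and CSS the shares were 20.3% and 46.2%, and 2 of the 4 (Edn1 and Ednra) passed the adjusted p. These 2 were the ones without overlap there, as were 55.4% of genes, and with Ednrb 3 had an unadjusted p under 0.05, as had 52.9%. For the interaction of genotype and treatment they were 15.2% and 26.4%, and 1 of the 4 (Ednra) passed, the 1 with an unadjusted p under 0.05 (37.7% of genes). The comparisons share mice and are not independent, since each group enters 2 of the 4 and the interaction uses all 4 groups.

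**Figure D2:**
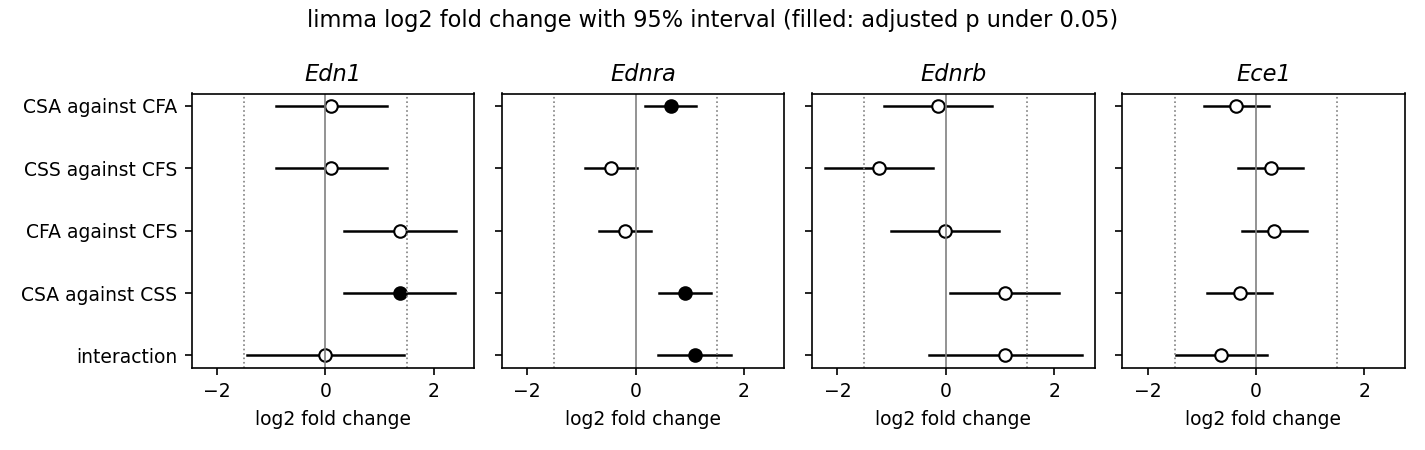
Log2 fold change (limma, points) with its 95% interval for the 4 tested genes in each comparison and in the interaction, filled where the adjusted p was under 0.05, with dotted lines at the fold limit of 1.5. Filled points are Ednra in CSA against CFA (0.65), in CSA against CSS (0.91) and in the interaction (1.09), and Edn1 in CSA against CSS (1.37), all inside the dotted lines.

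Edn1, the ligand gene, was higher with Ang II in both genotypes on average, by nearly the same amount. Its level was 19.8, 3.998 and 9.73 FPKM in CFS mice, and 10.8, 10.3 and 8.87 in CSS mice. It was 37.2, 21.6 and 17.2 FPKM in CFA mice, and 28.2, 27.4 and 22.5 in CSA mice. All 3 CSA mice were above all 3 CSS mice, while CFA and CFS overlapped because CFS68 lay above CFA74. In order of mean level the groups were CSS (9.98 ± 0.99 FPKM, SD, n = 3), CFS (11.2 ± 8.02), CFA (25.3 ± 10.5) and CSA (26.0 ± 3.08), and each neighbouring pair overlapped.

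Between CSA and CSS, Edn1 rose 2.59-fold (log2 1.37 ± 0.47 SE, limma unadjusted p = 0.0135, adjusted p = 0.0319, with all CSA mice above all CSS mice). This passed in 13 of 19 alternative settings. The adjusted p ran from 0.000801 to 0.0880 over them, and was 0.0562 with no filter and 0.0725, 0.0718, 0.0635, 0.0676 and 0.0880 without CSA01, CSA02, CSS54, CSS55 or CSS56. Between CFA and CFS the estimate was of like size (log2 1.37 ± 0.47) with a limma adjusted p of 0.359 (unadjusted 0.0134). With each mouse left out it ran from 0.78, without CFS69, to 1.92, without CFS68 (adjusted p from 0.193 to 0.776). The 2 responses to Ang II, tested against each other, differed by -0.00 on the log2 scale with a 95% interval from -1.45 to 1.45 (limma adjusted p = 0.998). CSA differed from CFA by 0.11 on the log2 scale (95% interval -0.92 to 1.14, limma adjusted p = 0.872). CSS differed from CFS by 0.11 (-0.92 to 1.14, limma adjusted p = 1), although its mean FPKM was lower, because CFS69 lowers the mean of the log values more than that of the FPKM.

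Edn1 was set beside 12 endothelial markers, since endothelial cells are its main source. Their summed level was 595.1, 177.1 and 594.8 FPKM in CFS, 652.0, 496.8 and 486.2 in CSS, 486.7, 332.3 and 665.2 in CFA, and 265.5, 221.3 and 186.6 in CSA. All 12 markers were above 0 in every mouse. CFS69, the mouse with the lowest Edn1, had the lowest sum, and the 3 CSA mice were next. Between CSA and CFA, 4 of the 12 were called lower, namely Pecam1 (log2 fold change -1.84), Tek (-1.89), Vwf (-2.36) and Ptprb (-2.06), and 0 higher, while Robo4 passed the adjusted p alone (1.06, limma adjusted p = 0.0495). Between CSA and CSS, where Edn1 passed, 4 of the 12 were called lower and 1 higher (Kdr, log2 fold change 1.59). All 8 SMC markers were called lower in that comparison, and 6 of 7 macrophage markers higher. Edn1 itself was not lower in CSA. Per 100 FPKM of endothelial markers, a measure chosen after its values were seen, Edn1 was 1.64 to 3.33 in CFS, 1.65 to 2.07 in CSS, 2.59 to 7.65 in CFA and 10.6 to 12.4 in CSA. Ece1, which did not pass in any comparison, was 9.47 to 14.9 in CFA and 19.0 to 21.9 in CSA on the same measure, since the marker sum itself was lower in CSA, so the separation of CSA is not particular to Edn1. Ednrb was 0.780 to 2.17 in CFA and 1.19 to 5.08 in CSA on this measure, and these ranges overlapped. What part the makeup of the tissue had in the Edn1 level was not tested.

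**Figure D3:**
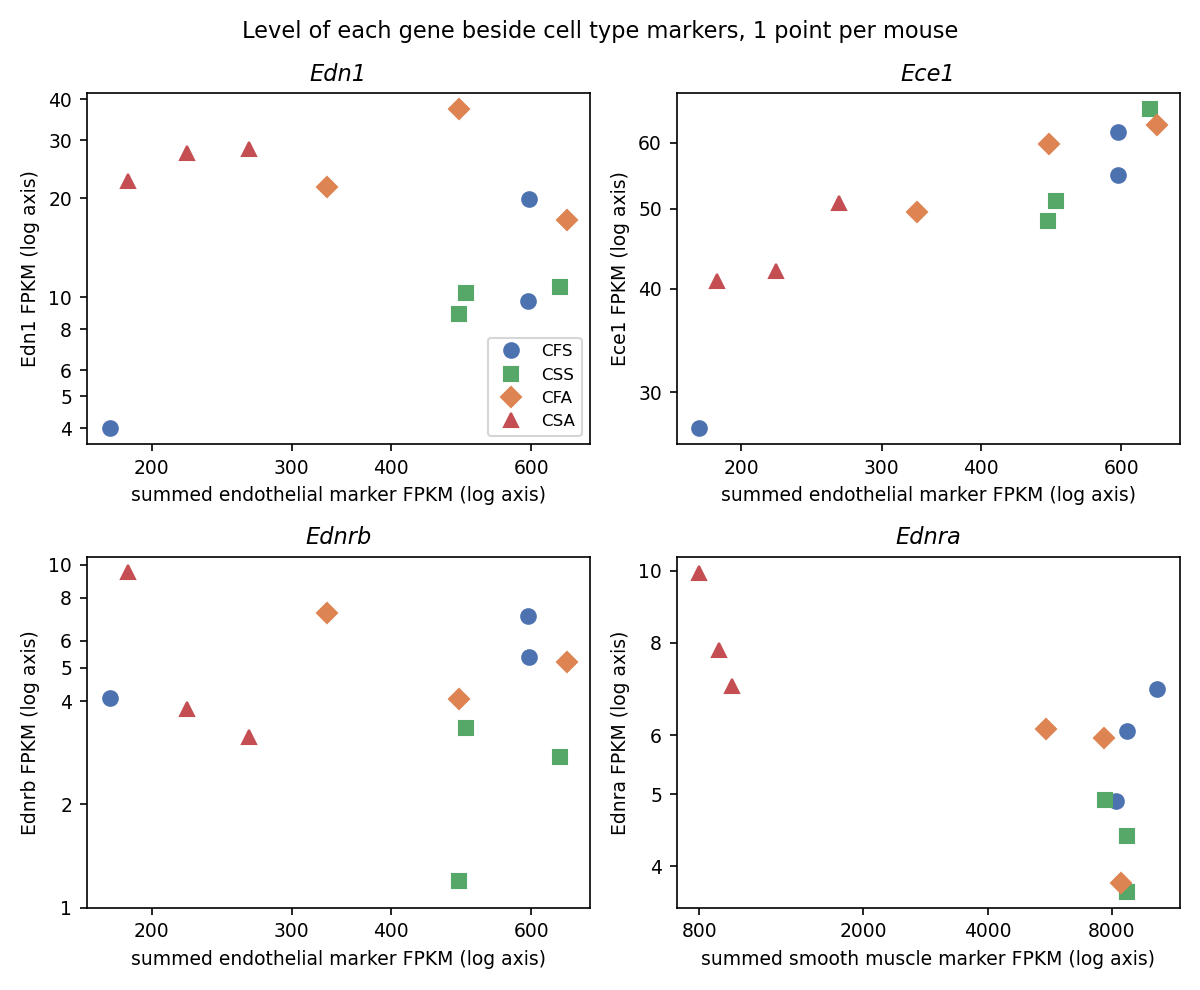
FPKM of Edn1, Ece1 and Ednrb against the summed FPKM of 12 endothelial markers, and of Ednra against that of 8 SMC markers, 1 point per mouse, all axes logarithmic. In CSA, Edn1 stays at 22.5 to 28.2 FPKM at endothelial sums of 187 to 265, Ece1 is lower at lower sums in all groups taken as one, and Ednra is highest where the SMC sum is lowest (800 to 959).

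Edn3 encodes the ligand that favours the B receptor, and it was close to the limit of detection. It was 0.250, 0.221 and 0.0987 FPKM in CFS mice, and 0.118, 0.236 and 0.0782 in CSS mice. It was 0.312, 0.264 and 0.264 FPKM in CFA mice, and 0.0359, 0 and 0.222 in CSA mice. In fragments, the 3 CFA mice held 74 together and the 3 CSA mice 17, of which 14 came from CSA03, and the 0 of CSA02 allows up to 3 fragments or 0.0344 FPKM, counting error only. CFA and CSA did not overlap, and the exact two-sided permutation p was 0.1, the smallest that 3 against 3 mice allow. CFA also lay above CFS without overlap (exact permutation p = 0.1), and CSS overlapped both CFS (exact permutation p = 0.6) and CSA (exact permutation p = 0.5). In a limma fit with no filter, Edn3 missed the threshold between CSA and CFA (adjusted p = 0.0965) and between CFA and CFS (adjusted p = 0.937). Of all tested genes, 48.5% had no overlap between CSA and CFA, and 20.2% had none between CFA and CFS. Edn2, the gene of the remaining endothelin, was listed at 0 in all but 1 mouse (0.0314 FPKM, in CSS).

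Ednra, the contraction receptor, was the member with the clearest difference. Its level was 6.08, 6.93 and 4.90 FPKM in CFS mice, and 3.69, 4.92 and 4.40 in CSS mice. It was 5.95, 3.80 and 6.12 FPKM in CFA mice, and 7.82, 6.99 and 9.93 in CSA mice. All 3 CSA mice were above every mouse of the other 3 groups. By mean the order was CSS (4.34 ± 0.61 FPKM, SD, n = 3), CFA (5.29 ± 1.29), CFS (5.97 ± 1.02) and CSA (8.25 ± 1.51), and only the last step had no overlap.

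Between CSA and CFA, Ednra rose 1.56-fold (log2 0.65 ± 0.22 SE, 95% interval 0.17 to 1.12, limma adjusted p = 0.0343). This passed in 14 of 19 alternative settings. The adjusted p was 0.0634 with no filter, 0.0995 with only these groups in the fit, and 0.123, 0.0578 and 0.0830 without CFA72, CSA01 or CSA03, where the log2 fold changes were 0.43, 0.68 and 0.51. Between CSA and CSS, Ednra rose 1.87-fold (log2 0.91 ± 0.22, limma adjusted p = 0.00536), and its adjusted p stayed between 0.00189 and 0.0262 in all 19 alternative settings. Under saline the difference between CSS and CFS was -0.45 (limma adjusted p = 0.818), and Ang II in floxed mice gave -0.19 (limma adjusted p = 0.906). The difference between CSA and CFA exceeded that between CSS and CFS by 1.09 ± 0.31 on the log2 scale (limma interaction adjusted p = 0.0223), and this adjusted p was 0.0502, 0.0533 and 0.0587 without CFS68, CFS69 or CSS54.

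The rise of Ednra went with low SMC markers. All 8 SMC markers were called lower in CSA than in CFA, with log2 fold changes of -4.17 to -2.28. Tagln, with the smallest of these falls, shares 67.9% of its exonic bases with genes of the other strand. It averaged 18.5 FPKM in CFA, and its level is uncertain. Per 1000 FPKM of SMC markers, a measure chosen after its values were seen, Ednra was 0.598 to 0.699 in CFS, 0.425 to 0.638 in CSS, 0.452 to 1.11 in CFA and 7.29 to 12.4 in CSA. The lower marker sum raises this measure in CSA for any gene that did not fall with it. Of the 6 fibroblast markers, which were higher in sum in CSA, 2 passed the adjusted p upwards and 2 downwards. The genes whose log2 level followed Ednra best over the 12 mice, among 12412 protein-coding genes, were Cdh11, a mesenchymal cadherin (Pearson r = 0.965), Frmd4a (0.948) and Ggta1 (0.934). These correlations are descriptions over mice that share 4 groups. Which cells carried Ednra was not tested.

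Ednrb, the clearance receptor, did not pass in any comparison. Its level was 5.38, 4.10 and 7.07 FPKM in CFS mice, and 2.75, 3.34 and 1.196 in CSS mice. It was 4.07, 7.21 and 5.19 FPKM in CFA mice, and 3.15, 3.79 and 9.48 in CSA mice. All 3 CSS mice were below all CFS and CFA mice, and CSA spanned both ends because of CSA03. The means were 2.43 ± 1.11 FPKM in CSS (SD, n = 3), 5.48 ± 3.49 in CSA, 5.49 ± 1.59 in CFA and 5.51 ± 1.49 in CFS, and each neighbouring pair overlapped.

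Ednrb in CSS was 0.43-fold that in CFS (log2 -1.23 ± 0.45 SE), and did not pass after adjustment (limma adjusted p = 0.661, unadjusted 0.0202). With each mouse left out, this log2 difference ran from -1.51 to -0.81. Between CSA and CSS the log2 difference was 1.09 ± 0.45 (limma adjusted p = 0.0720), and it was 0.61 without CSA03 and 1.39 without CSA01 (adjusted p = 0.234 and 0.0391). This difference passed in 2 of 18 alternative settings, with a limma adjusted p from 0.0391 to 0.265. Between CSA and CFA it was -0.14 with a 95% interval from -1.14 to 0.86 (limma adjusted p = 0.835), and -0.61 without CSA03. The interaction was 1.10 ± 0.64 (limma adjusted p = 0.243), and it ran from 0.62 to 1.40 with each mouse left out. The genes that followed Ednrb best were Chchd3 (Pearson r = 0.905, 12 mice) and Ndufa4 (0.902), both of mitochondria, and Lpar1, a lysophosphatidic acid receptor (0.861).

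The ratio of the receptors within a mouse does not depend on scaling between libraries. The log2 ratio of Ednra to Ednrb was 0.18, 0.76 and -0.53 in CFS mice, and 0.43, 0.56 and 1.88 in CSS mice. It was 0.55, -0.92 and 0.24 in CFA mice, and 1.31, 0.88 and 0.07 in CSA mice. All 6 CCN2SMCΔ mice had more Ednra than Ednrb, as did 2 of 3 mice in each control group. The groups overlapped in both genotype comparisons. The mean difference was 0.80 between CSA and CFA and 0.82 between CSS and CFS, each with an exact two-sided permutation p of 0.3, where 0.1 is the smallest possible.

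**Figure D4:**
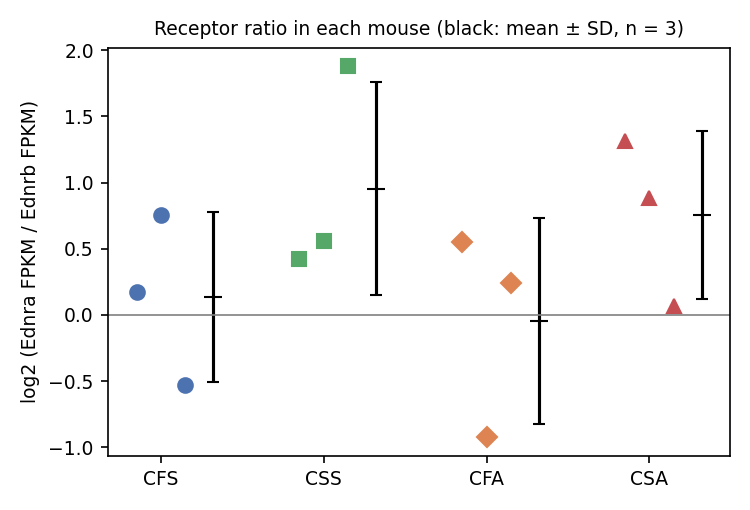
Log2 ratio of Ednra to Ednrb FPKM in each mouse (3 per group), with group mean ± SD in black. All CSS and CSA mice lie above 0, CFS70 (-0.53) and CFA72 (-0.92) lie below it, and the groups overlap.

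Ece1, which makes active endothelin-1 from its precursor, did not pass in any comparison. It was 54.8, 27.2 and 61.8 FPKM in CFS mice, and 65.9, 51.1 and 48.2 in CSS mice. It was 59.7, 49.5 and 62.998 FPKM in CFA mice, and 50.8, 42.0 and 40.9 in CSA mice. All groups overlapped, and the lowest mouse was CFS69, which was also lowest in endothelial markers. The order by mean was CSA (44.6 ± 5.44 FPKM, SD, n = 3), CFS (47.9 ± 18.3), CSS (55.1 ± 9.46) and CFA (57.4 ± 7.07). Between CSA and CFA the log2 difference was -0.36 with a 95% interval from -0.96 to 0.24 (limma adjusted p = 0.312), and the interaction was -0.64 (limma adjusted p = 0.258), or -0.27 without CFS69.

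Over the 12 mice Ece1 was followed best by Cdh5, the cadherin of endothelial junctions (Pearson r = 0.972), then by Afap1l1 (0.937) and the calcium release channel gene Itpr3 (0.905). Cdh5 was 16.1 to 54.97 FPKM in CFS, 34.2 to 50.7 in CSS, 35.6 to 58.8 in CFA and 32.1 to 45.1 in CSA. Like Ece1 it did not pass between CSA and CFA (log2 fold change -0.36, limma adjusted p = 0.501). Edn1, in contrast, had as its best followers Fam71e1 (0.899), Cbr4 (0.881) and Stard4 (0.879), none of them an endothelial marker on the list used.

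Ece2, a converting enzyme best known from neural tissue, was barely detected. It was 0.106, 0.115 and 0.159 FPKM in CFS mice, and 0.116, 0.0739 and 0.144 in CSS mice. It was 0.126, 0.166 and 0.129 FPKM in CFA mice, and 0.328, 0.203 and 0.204 in CSA mice. The CSA mice, with 72 fragments in all, were above the CFA mice, with 46, and above the CSS mice, with 34 (exact two-sided permutation p = 0.1 for each, the smallest possible). Without a filter limma gave adjusted p-values of 0.307 and 0.129 for these. Such a lack of overlap was seen in 48.5% of all tested genes between CSA and CFA, and in 55.4% between CSA and CSS. Ece2 shares 57.5% of its exonic bases with the gene Gm49333 on the same strand, listed at 0 in every mouse, and counting could divide or drop such fragments, so the level of Ece2 is uncertain.

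The rest of the pathway was read from 4 lists, beside all tested genes, of which 17.2% were called between CSA and CFA, with a median log2 fold change of -0.04. Genes of contraction downstream of the A receptor were mostly lower in CSA. Of 14 listed genes 12 were tested, 7 were called lower and 0 higher, against 17.2% of all genes called in either direction, and the median was -1.56. In the same mice all 8 SMC markers were called lower, with a median of -2.99, and their part was not tested. Myl9, the regulatory myosin light chain, was 158 to 256 FPKM in CSA and 1972 to 2443 in CFA (log2 fold change -3.45 ± 0.18 SE, limma adjusted p = 6.13e-07). Ppp1r14a, the inhibitor of myosin phosphatase known as CPI-17, fell by 3.44 on the log2 scale, and the myosin light chain kinase gene Mylk fell by 2.67.

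Most genes that relay the B receptor signal were lower as well. All 7 were tested, 5 were called lower and 0 higher (17.2% of all genes were called), and the median was -2.32. Ptgs1, a cyclooxygenase gene, and Ptgir, the prostacyclin receptor gene, did not pass, with log2 fold changes of -0.83 and 0.32 (limma adjusted p = 0.0855 and 0.411). Prkg1, the cyclic GMP-dependent kinase, was 0.971 to 1.35 FPKM in CSA and 6.80 to 7.65 in CFA, and fell by 2.53 on the log2 scale. Gucy1a1, a subunit of the nitric oxide receptor guanylate cyclase, fell by 2.32. Nos3, endothelial nitric oxide synthase, was 1.55 to 6.69 FPKM in CSA and 13.5 to 31.7 in CFA and fell by 2.37 (limma adjusted p = 0.0207). It shares 32.3% of its exonic bases with genes of the other strand. The adjusted p for Nos3 was 0.0582, 0.0764 and 0.0678 without CFA71, CFA74 or CSA03. With each mouse left out, its log2 fold change ran from -2.72 to -1.69. In the same mice 8 of 8 SMC markers and 4 of 12 endothelial markers were called lower, and their part was not tested.

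Genes that couple the receptors to G proteins or switch them off were called not far from the rate of all genes. All 24 were tested, 3 were called higher and 3 lower, beside 17.2% of all genes, and the median was -0.24. Arrb2, a beta-arrestin that uncouples receptors, was 46.1 to 69.1 FPKM in CSA and 5.18 to 10.2 in CFA (log2 fold change 3.13 ± 0.25 SE, limma adjusted p = 5.11e-06). Plcb2, the phospholipase C isoform of blood cells, rose by 3.11 on the log2 scale, and Plcb4 fell by 2.19. The rise of Plcb2 ran from 1.87 to 3.56 over 15 alternative settings. The G protein gene Gnaq was 15.4 and 19.1 FPKM on average in CSA and CFA (limma adjusted p = 0.0827). Its relative Gna11 was lower, at 15.7 and 35.7 FPKM (log2 fold change -1.24, limma adjusted p = 0.000817), below the fold limit in size. Macrophage markers (6 of 7 called higher) and neutrophil markers (5 of 5) were higher in the same mice, and their part was not tested.

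Of 10 genes for processing and degradation 6 were tested, 1 was called lower and 0 higher, close to the 17.2% of all genes, and the median was 0.05. Mme, the endothelin-degrading protease neprilysin, was 0.179 to 0.458 FPKM in CSA and 1.71 to 3.41 in CFA (log2 fold change -2.89 ± 0.35 SE, limma adjusted p = 8.50e-05). Its log2 fold change ran from -3.20 to -1.51 over 18 alternative settings, and the adjusted p passed in all 18. Ctsa, a lysosomal carboxypeptidase that degrades endothelin-1, rose by 0.80 on the log2 scale (limma adjusted p = 0.000349), below the fold limit. It shares 17.4% of its exonic bases with genes of the other strand, and 7 of 7 macrophage markers passed the adjusted p upwards in the same mice, whose part was not tested. Cma1, a mast cell chymase, was 4.20 to 13.9 FPKM in CSA and 1.18 to 8.26 in CFA (limma adjusted p = 0.440). Furin was 8.57 to 27.7 FPKM in CSA and 16.5 to 18.5 in CFA (log2 fold change 0.00, limma adjusted p = 0.996).

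**Figure D5:**
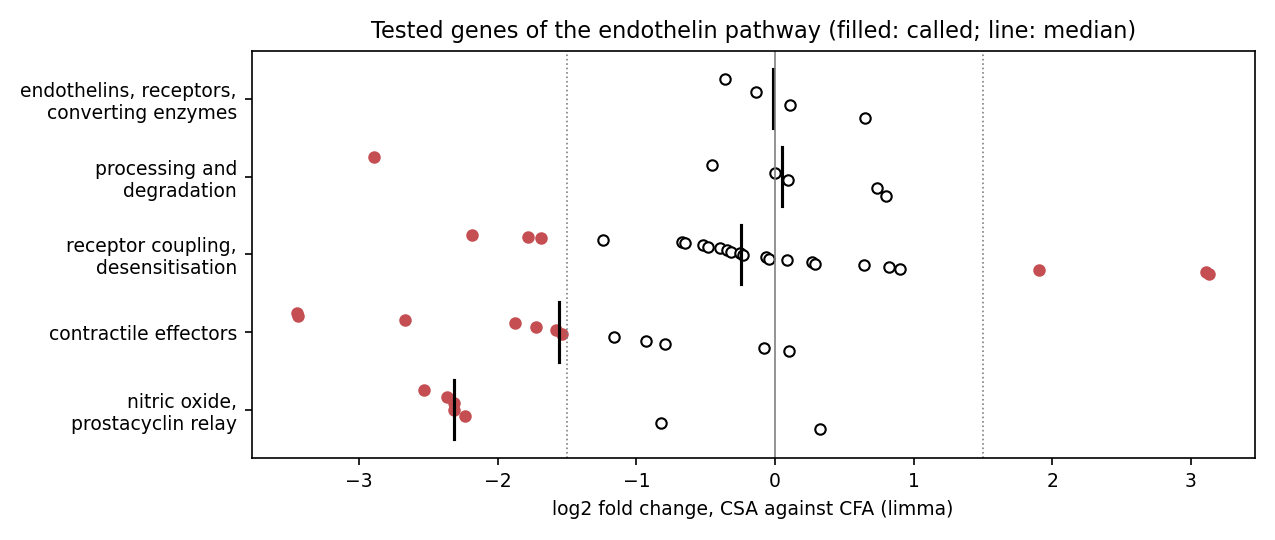
Log2 fold change between CSA and CFA (limma) of each tested gene, by list, filled red where called, with the list median as a black line and dotted lines at the fold limit of 1.5. The 4 tested endothelin genes lie between -0.36 and 0.65, whereas 7 of 12 contractile effectors and 5 of 7 genes of the nitric oxide and prostacyclin relay are called lower.

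In the comparisons without CSA few genes of any kind passed. Between CSS and CFS, 0 of the 49 tested genes of the 4 lists passed the adjusted p, where 0.0204% of all genes did, with list medians of -0.02 to 0.23. Between CFA and CFS 0 passed as well, where 0.0341% of all genes did, with medians of -0.28 to 0.21. Between CSA and CSS, where 20.3% of all genes were called, 8 of 12 contractile effectors and 5 of 7 relay genes were called lower and 0 higher. Of the 24 coupling genes 3 were called higher and 4 lower there, and of the 6 processing genes 1 lower. This last comparison has its CSA mice in common with that against CFA.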

How the data were processed

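Poly(A) RNA of 12 abdominal aortas was sequenced as paired 150 bp reads, without stated strand marking. The authors deposited FPKM, fragments scaled by exon length and library size, 1 value per gene and mouse, not pooled. The submitters' processing notes name HISAT2 2.0.5, StringTie 1.3.3b, featureCounts 1.5.0-p3 and mm10, without roles. The study used DEG-Seq, and here limma was used because the deposited unit was FPKM. Fragments recovered from them were not tested. With GENCODE M21 exon lengths, 98.0% to 98.5% of values under 100 fragments came out whole (within 0.05), which gave the depth. The values already carry a scaling that equalises median log ratios between libraries.

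limma 3.58.1 in R 4.3.3 (eBayes, trend and robust) was fitted to log2(FPKM + 0.1) of the 14676 genes with at least 1 FPKM in at least 3 libraries, as a model of 4 group means on all 12 libraries. A check on simulated data gave all genes the same dispersion and changed a small set of them, in CSA only. That check does not cover a spread that differs between genes or changes in as many genes as found here. P-values were adjusted by Benjamini-Hochberg within each comparison. The 2 genes under the filter and the receptor ratio were compared by exact permutation in Python 3.11.15 with scipy 1.17.1. Named genes were the 6 members, Ccn2, the 3 tested genes of each pathway list with the largest change between CSA and CFA, single markers where a result turned on them, and the 3 best correlated genes. Gnaq, Gna11, Ptgs1, Ptgir, Furin, Edn2 and the genes under other observations were named after their values were seen. The members and the lists were chosen with earlier results of these data known. Alternatives were other pseudocounts, filters, scalings, moderation, samples in the fit, call rules, and each mouse left out. Intervals and floors cover the stated error only. Protein sequences were not used here.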

Additional observations from a re-analysis of the deposited data

Results flagged for a closer look

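The difference in Ednra between the labelled genotypes was not the same under the 2 treatments. On the log2 scale it was 0.65 under Ang II and -0.45 under saline, and the interaction was 1.09 ± 0.31 (SE, limma adjusted p = 0.0223). This passed in 15 of 18 alternative settings, with an adjusted p of 0.0121 to 0.0587, and was lost without CFS68, CFS69 or CSS54 (0.0502, 0.0533 and 0.0587). Ccn2 itself did not pass between CSS and CFS (log2 fold change -0.40, limma adjusted p = 1). All 3 CSA mice were above all 3 CFA mice, while CSS and CFS overlapped. Of all tested genes, 26.4% passed the adjusted p for this interaction.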

How the results depend on the processing

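With no fold limit, 1 endothelin gene was called between CSA and CFA, 2 between CSA and CSS and 1 for the interaction, in place of 0. Scaling to library totals moved the median of all genes between CSA and CFA from -0.04 to 0.12 (log2), and with it 1 gene was called between CSA and CSS (Edn1, 1.55). Under that scaling Ednrb turned to 0.016 between CSA and CFA and 0.0115 between CFA and CFS, and the Edn1 interaction to 0.16, or 0.026 with a pseudocount of 1. These were all near 0 at the start and none passed the test. With each mouse left out in turn, Edn1 ran from -0.13 to 0.42 between CSA and CFA, from -0.48 to 0.66 between CSS and CFS, and from -0.55 to 0.59 in the interaction. Ednrb ran from -0.61 to 0.17 between CSA and CFA and from -0.22 to 0.18 between CFA and CFS, and Ednra from -0.32 to 0.030 between CFA and CFS. Ece1 ran from -0.094 to 0.50 between CSS and CFS and from -0.028 to 0.56 between CFA and CFS, Ece2 from -0.22 to 0.025 between CSS and CFS, and Cma1 from -0.10 to 1.25 between CSA and CFA. The cause of these turns was not tested. Median-of-ratios scaling turned no direction. Depth limits Edn3 and Ece2, which had at most 28 and 34 fragments in a mouse. No paired analysis was possible because the groups share no replicate numbers.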

Other observations

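Of the 4 genes for processing and degradation that were not tested, Edn2, Ecel1, Mmel1 and Kel, no mouse exceeded 0.175 FPKM (Ecel1, in CFA). Mcpt4, a mast cell chymase gene like Cma1, was 3.06 to 5.54 FPKM in CSA and 1.74 to 11.9 in CFA (log2 fold change -0.46, limma adjusted p = 0.619). Pcsk7, a proprotein convertase gene, was 6.20 to 9.66 FPKM in CSA and 7.41 to 8.06 in CFA (log2 fold change 0.09, limma adjusted p = 0.673). It shares 10.1% of its exonic bases with genes of the other strand, Tagln among them. Furin, another convertase gene, spread from 8.57 to 27.7 FPKM among CSA mice and from 15.8 to 18.5 over the other 9.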
